A study of Arabidopsis thaliana with 3 samples.

Results

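The Aux/IAA and ARF families, the repressors and the DNA-binding factors of the auxin response, were followed through 3 two-colour arrays of Arabidopsis thaliana rosette leaves. The set holds 41 genes, 29 Aux/IAA (IAA1 to IAA20 and IAA26 to IAA34) and 12 ARF, chosen by family and matched by locus code to the array annotation. All 41 were found among the 26017 loci of the array, on 54 spots. Each array compared wild type, labelled with Cy3, with the transgenic line AhNF-YC-OE, labelled with Cy5. Both genotypes were of the Col-0 ecotype, were 5 weeks old and were kept at 22 °C under days of 16 h light and 8 h dark. AhNF-YC is an NF-YC gene of grain amaranth, and NF-YC proteins are subunits of the CCAAT-binding factor NF-Y.

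The normal growth array held leaves of both genotypes without stress, and the water stress array leaves taken after 5 days of water stress. The recovery array held leaves collected 24 h after water was restored; the protocol given with that array names 8 days of stress before it, while the protocol given with the other arrays names 5 days alone, so the labels do not settle how long these plants were stressed. The sources used here do not give the promoter of the transgene, the number of independent lines or the plants per RNA sample. With 1 array for each condition there was no replicate check, no test was made and no p-value is given. The dyes were not exchanged, so a probe that favours one dye and a difference between genotypes cannot be told apart.

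Aux/IAA proteins are short-lived nuclear repressors. They bind ARF proteins at auxin response elements and bring in TOPLESS corepressors, and auxin makes them bind the F-box receptors TIR1 and AFB through their degron, after which they are degraded. Many Aux/IAA genes are themselves switched on by auxin, so their transcripts are often used as a readout of the response. Among ARF genes, ARF5, ARF6, ARF7, ARF8 and ARF19 encode activators and most others encode repressors, and several are held down by small RNAs. In leaves these factors act in outgrowth, polarity, vein pattern and senescence.

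The spots themselves set limits on what a gene name means here, and every value below rests on the array annotation that names them. Median spot intensity over all genes was 4208, 1422 and 1399 in wild type and 3042, 812 and 962 in the transgenic line, in the order normal growth, water stress, recovery that every series of 3 values follows unless spots are named. Intensities are raw spot means, while ratios are taken after background correction and loess, which removes the general gap between channels at each intensity. All 41 members lay above local background in both channels on each array, and no member's spot mean exceeded 65000. Empty spots (510 per array) had a median of 106, 70.7 and 64.4 in wild type. Under normal growth an upper tail of them was bright, with a 95th percentile of 5668 in wild type. By that mark, which the tail sets, 17 of 41 members (41.5%) were brighter than 95% of empty spots there. On the other arrays 37 and 36 of 41 were. Over all genes the corresponding shares were 47.6%, 85.7% and 87.8%. IAA10, IAA29, ARF16 and ARF17 stayed below that mark on every array, and IAA26 on the normal growth and recovery arrays. Spots named for 8 leaf markers (Rubisco, its activase and the photosystems) had a median wild-type percentile of 42.0, 51.5 and 47.0, ranging from 16.1 to 92.9 under normal growth. The labelled tissue did not stand out: 4 seed markers had medians of 45.1, 49.6 and 58.4, and 3 root markers 68.0, 73.2 and 57.6.

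Of the 41 genes, 9 had more than one spot, and these did not share a level. The brightest spot exceeded the dimmest in wild type by 1.21-fold to 67.2-fold under normal growth, with a median of 9.23-fold. The medians were 3.09-fold and 8.4-fold under water stress and in recovery. IAA13, a partner of ARF5 in the embryo, had the widest gap: its 3 spots read 2345, 236.5 and 15898 under normal growth. The 2 ARF7 spots were the closest under normal growth, at 1821 and 1506, followed by the ARF2 spots, at 31054 and 23446. The genotype ratio, which is formed within a spot, varied less: its range over the spots of a gene had a median of 0.205, 0.213 and 0.146 on the log2 scale, with a highest value of 0.709. The other 32 members had 1 spot each, and for them no such check exists.

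Over the whole array, spots that carry the same transcript code also agreed poorly. For the 1464 codes with 2 spots, Pearson's r between the log2 wild-type levels of both spots was 0.0533, 0.0594 and 0.0773. For the 62 codes with more spots it was 0.705, 0.669 and 0.629, over 1092 pairs that share spots. The genotype ratio of the 2-spot codes had r of 0.11, 0.104 and 0.193, and its spread between spots (SD) of 0.205, 0.288 and 0.197 was little smaller than its SD over all gene spots, 0.217, 0.303 and 0.222. These r are over transcript codes within an array, are given as a description, and the codes are not independent replicates. Whether the annotation matches the layout in which the probes were printed was not tested, and a gene name below means the spot so annotated.

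**Figure D1:**
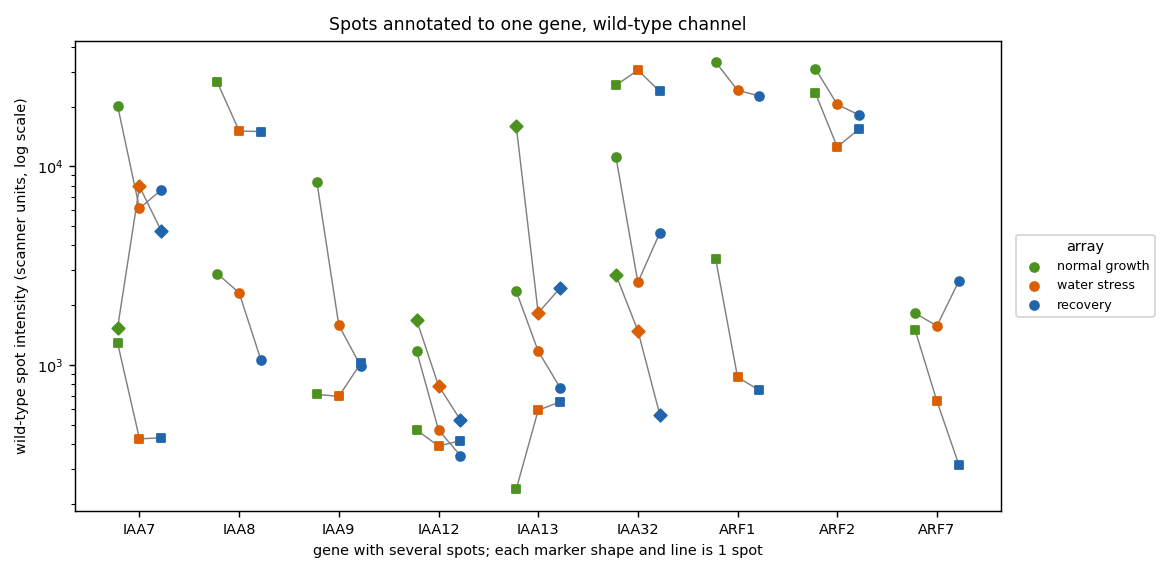
Wild-type spot intensity (log axis, scanner units) of the 9 genes with more than one spot, with colours for the 3 arrays and one marker shape and line per spot. Spots that carry one gene name lie up to 67.2-fold apart under normal growth, and their lines often run in opposite directions between arrays.

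The genotype ratio, AhNF-YC-OE over wild type, asks whether the transgene shifts the auxin response factors. It stood near equality for nearly all of them. None of the 41 genes was at least 2-fold apart under normal growth, where 0.1% of 26009 genes were. In recovery the count was again 0 of 41, beside 0.438% of 26006 genes. Under water stress 1 of 41 was, IAA3, on the lower side; over all 26012 genes 0.334% lay that far down, 0.5% that far up and 0.834% in either direction. With 41 genes, background shares of this size correspond to less than 1 gene, so these counts do not set the families apart from the rest of the array.

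The Aux/IAA median log2 ratio was 0.0038, −0.0069 and 0.020, and the ARF median 0.040, 0.070 and 0.042, beside −0.0065, 0.0027 and −0.0005 over all genes. For a single gene, the spread of the ratio between spots of one transcript was 0.176, 0.245 and 0.18 (SD, from 2556 pairs of spots, those of all codes with several spots), a measure of the spots and not of the family medians, for which no error can be given. Since that spread is close to the one over all spots, a value inside it is an ordinary one for these arrays and is not shown to equal 0. On all arrays at once, 38 of 41 genes lay within 1.5-fold, 26 of 29 Aux/IAA and 12 of 12 ARF, beside 92.1% of all genes. The exceptions were IAA3, IAA30 and IAA34. The ratio was above 0 on all arrays for 9 genes and below 0 on all arrays for 8. The share of all genes that did so is not given here, so these counts are not read as a result about the families.

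**Figure D2:**
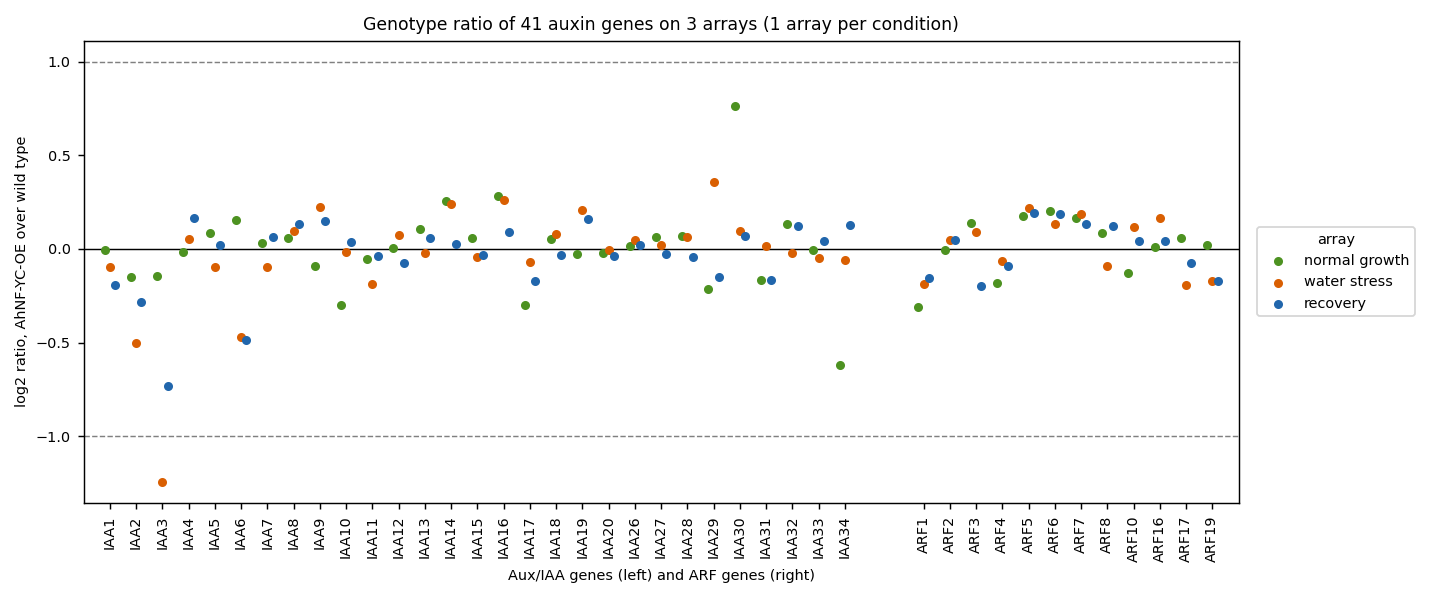
Log2 genotype ratio (AhNF-YC-OE to wild type) for each of the 41 genes (Aux/IAA left, ARF right), with 1 point per array and dashed lines at 2-fold. Points crowd around 0 and only IAA3 under water stress, at −1.24, lies beyond a dashed line.

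The gene furthest from equality was IAA3 (AT1G04240), known as SHY2, a repressor through which cytokinin and auxin are balanced in the root meristem. Its single spot read 1233, 940.2 and 502 in wild type against 776, 153 and 156 in AhNF-YC-OE. The log2 ratios were −0.15, −1.24 and −0.73, furthest below 0 under water stress. The value under normal growth lay inside the spread between spots of one transcript, and its sign turned with the processing: the authors' deposited table held 0.032, and loess by print-tip block gave 0.051. Among genes of similar intensity the middle 95% of ratios began at −0.741 under water stress and at −0.675 in recovery, and IAA3 lay below both. That range leaves out a share of all genes by its making, so this position alone does not set IAA3 apart. On the water stress and recovery arrays both channels were dimmer than the median over all genes. The wild-type intensity exceeded the 95th percentile of empty spots on both arrays, 400 and 260. The intensity in AhNF-YC-OE was below that percentile under water stress, 222.0, and just above it in recovery, 143.0.

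The value of IAA3 depended on how the water stress array was normalised. It was −1.80 with median centring and −1.45 with plain background subtraction. With loess inside each print-tip block it was −0.797, and in the authors' deposited table −0.943, both short of 2-fold. Under water stress and in recovery the direction was the same in each, and in recovery the ratio stood at −0.242 after print-tip loess and at −0.158 in the authors' deposited table.

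Spots around IAA3 were low as well. The spot stands in the first row of the corner block of the slide. Its 14 neighbours, within 2 rows and columns, had a median log2 ratio of −0.33, −0.52 and −0.65. Under water stress every neighbour was below 0, from −1.05 to −0.247, and IAA3 lay below the lowest of them. In recovery IAA3, at −0.73, lay inside the neighbours' range of −1.06 to −0.142. The locus is on chromosome 1, where 0.983% of genes were at least 2-fold lower under water stress, against 0.109% on the other chromosomes; in recovery the shares were 1.1% and 0.135%. IAA17 carries the next locus code, lies at the same position in another block, and had ratios of −0.30, −0.069 and −0.17. The part of slide position and chromosome in the IAA3 value was not tested.

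On the normal growth array 2 bright Aux/IAA genes lay outside the middle 95% of genes of like intensity, on opposite sides. That range leaves out a share of all genes by its making. Having 2 of the 41 genes outside it does not set the families apart. Both genes encode proteins without a canonical degron, and whether that bears on their ratios was not tested. IAA30 (AT3G62100) read 21349, 29228 and 37461 in wild type against 38839, 40227 and 47609 in AhNF-YC-OE, with ratios of 0.76, 0.098 and 0.067; it was higher in AhNF-YC-OE on that array and close to equality on the others. IAA34 (AT1G15050) read 46608, 20009.6 and 17807 in wild type against 37758, 20103 and 19152 in AhNF-YC-OE, with ratios of −0.62, −0.06 and 0.13. It was lower in AhNF-YC-OE on that array and within 0.13 of 0 on the others. Both values depended on the normalization within the array: with median centring IAA30 stood at 1.23 and IAA34 at 0.061 on the normal growth array. With print-tip loess they stood at 0.52 and −0.60, and in the authors' deposited table at 0.52 and −0.60.

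**Figure D3:**
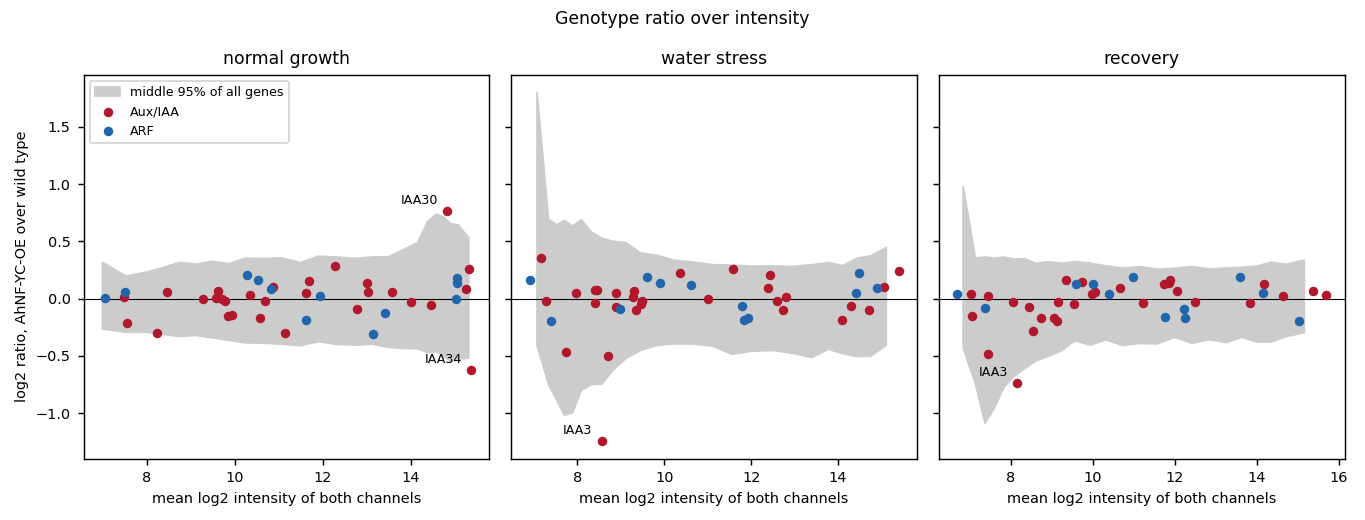
Log2 genotype ratio (AhNF-YC-OE to wild type) against the mean log2 intensity of both channels, 1 panel per array, with Aux/IAA genes in red, ARF genes in blue and the middle 95% of all genes shaded. IAA30 and IAA34 under normal growth and IAA3 under water stress and in recovery lie outside the shaded range, and every ARF gene lies inside it. The shaded range leaves out a share of all genes by its making, so these positions do not set the families apart.

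The other 4 Aux/IAA genes with an absent or degenerate degron, a feature that makes these proteins long-lived, stayed within 1.5-fold. IAA20 (AT2G46990) read 1957, 2588 and 2794 in wild type against 1354, 1653 and 2006 in AhNF-YC-OE, with ratios of −0.023, −0.0069 and −0.037. IAA31 (AT3G17600), its relative, read 1919.7, 893 and 704 in wild type against 1198, 436 and 386 in AhNF-YC-OE, with ratios of −0.17, 0.013 and −0.17. IAA33 (AT5G57420), which lacks most of the canonical domains, read 996, 1015 and 1197 in wild type against 698, 499 and 830.2 in AhNF-YC-OE, with ratios of −0.0031, −0.046 and 0.042. The ratios of IAA20 and IAA33 stayed within 0.05 of 0, and those of IAA31 were lowest under normal growth and in recovery. IAA32 (AT2G01200), related to IAA34, is represented by the mean of 2 spots at 14212, 15999.8 and 12192 in wild type against 12291, 19388 and 12834 in AhNF-YC-OE, with ratios of 0.13, −0.022 and 0.12. Under normal growth the averaged IAA32 spots stood at −0.22 and 0.49, on opposite sides of 0, and the other IAA32 spot at −0.14. Over the 6 genes the median ratio was −0.013, −0.014 and 0.055.

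Most of the 23 Aux/IAA genes with a degron also stood near equality, with medians of 0.014, 0.019 and −0.025. After IAA3 the lowest under water stress and in recovery were IAA2 and IAA6. IAA2 (AT3G23030), an auxin-inducible repressor, read 1149, 791 and 541 in wild type against 721, 229 and 256 in AhNF-YC-OE, with ratios of −0.15, −0.50 and −0.29. IAA6 (AT1G52830), also known as SHY1, read 3678, 465 and 281 in wild type against 2950.1, 101 and 99.7 in AhNF-YC-OE, with ratios of 0.15, −0.47 and −0.49. Both were lower in AhNF-YC-OE under water stress and in recovery, by less than 1.5-fold. Under water stress and in recovery the IAA6 intensity in AhNF-YC-OE was below the 95th percentile of empty spots in that channel, 222.0 and 143.0. In the authors' deposited table the IAA2 value under water stress was −0.21 and the IAA6 value −0.99, further from 0 than the IAA3 value there. With print-tip loess IAA6 stood at −0.82, also past IAA3. The 24 neighbours of the IAA2 spot had a median of −0.29 under water stress, and those of the IAA6 spot −0.0081.

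On the higher side under water stress stood IAA29 (AT4G32280), a target of phytochrome-interacting factors in shade. It read 222, 257 and 194 in wild type against 146, 84 and 80.2 in AhNF-YC-OE, with ratios of −0.21, 0.36 and −0.15. The spot was dimmer than the 95th percentile of empty spots on each array, and its water stress ratio ran from −0.74 with median centring to 1.09 in the authors' deposited table. No order can be read from it at this signal.

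Next in rank were genes brighter than 95% of empty spots on each array. Under normal growth IAA16 passed that mark in the AhNF-YC-OE channel only. IAA14 (AT4G14550), known as SLR, is a repressor of lateral root initiation. It read 33622, 33313 and 46269 in wild type against 49536, 55384 and 60825 in AhNF-YC-OE, with ratios of 0.26, 0.24 and 0.028. IAA16 (AT3G04730) read 5178, 3374 and 1874 in wild type against 4669, 2776 and 1418 in AhNF-YC-OE, with ratios of 0.28, 0.26 and 0.093. Both were slightly higher in AhNF-YC-OE on all arrays, by little more than the spread between spots of one transcript under normal growth and by no more than about that spread under water stress. In recovery the highest Aux/IAA ratios belonged to IAA4, IAA19 and IAA9. IAA4 (AT5G43700) read 1031, 703 and 764 in wild type against 718, 322 and 547 in AhNF-YC-OE, with ratios of −0.017, 0.052 and 0.17. IAA19 (AT3G15540), known as MSG2 and acting in hypocotyl bending, read 17704, 5893 and 4042 in wild type against 15268, 5144 and 3499 in AhNF-YC-OE, with ratios of −0.029, 0.21 and 0.16. IAA9 (AT5G65670), whose loss in tomato alters leaf form, read 8317, 1582 and 986 in wild type against 5958, 1099 and 722 in AhNF-YC-OE on the spot used, with ratios of −0.093, 0.22 and 0.15. These 3 genes were higher in AhNF-YC-OE under water stress and in recovery and slightly lower under normal growth. The other IAA9 spot stood above 0 on all arrays, at 0.11, 0.15 and 0.20.

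Among the Aux/IAA genes the lowest under normal growth after IAA34 were IAA10 and IAA17; ARF1, described with its family, stood just below both. IAA10 (AT1G04100) read 376, 299 and 173 in wild type against 228, 81 and 89 in AhNF-YC-OE, with ratios of −0.30, −0.018 and 0.04. IAA17 (AT1G04250), known as AXR3, whose stabilised form gives strongly auxin-like plants, read 2949.7, 742 and 584 in wild type against 1698, 310.4 and 306 in AhNF-YC-OE. Both stood at −0.30 on that array and nearer equality on the others.

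Of the 4 remaining Aux/IAA genes with several spots, none stood beyond 0.14 in the ratio used. IAA7 (AT3G23050), known as AXR2, read 1532, 7919 and 4710.3 in wild type against 1097, 5801 and 3872 in AhNF-YC-OE, with ratios of 0.033, −0.099 and 0.064. IAA8 (AT2G22670) read 14732, 8685 and 8004 in wild type against 15399, 8505 and 7629.6 in AhNF-YC-OE as the mean of 2 spots, with ratios of 0.059, 0.095 and 0.13. IAA12 (AT1G04550), known as BDL and the partner of ARF5 in forming the embryonic root, read 1076, 588 and 471 in wild type against 736, 247 and 256 in AhNF-YC-OE, with ratios of 0.0038, 0.076 and −0.075. All of these were within the spread between spots of one transcript. IAA13 (AT2G33310) read 8067, 1209.5 and 1544 in wild type against 7523, 603 and 1067 in AhNF-YC-OE as the mean of 2 spots, with ratios of 0.11, −0.022 and 0.059. The brightest IAA7 spot gave 0.46 and −0.32 under normal growth and water stress, further from 0 on both than the spot used.

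A further group is named for its change between arrays, described after the genotype ratios. IAA1 (AT4G14560), known as AXR5, read 728, 959 and 758 in wild type against 515, 443 and 412 in AhNF-YC-OE, with ratios of −0.0038, −0.097 and −0.19. IAA18 (AT1G51950) read 3622, 550.1 and 724 in wild type against 2701, 222 and 439.6 in AhNF-YC-OE, with ratios of 0.052, 0.079 and −0.031. IAA26 (AT3G16500), known as PAP1, a phytochrome-associated protein, read 183, 442 and 238 in wild type against 152, 143 and 123 in AhNF-YC-OE, with ratios of 0.014, 0.046 and 0.021. In each, the genotypes differed by less than the spread between spots of one transcript, apart from IAA1 in recovery, which was just past it. IAA28 (AT5G25890), a repressor of lateral rooting, read 908, 890.4 and 942 in wild type against 666, 456 and 590.5 in AhNF-YC-OE, with ratios of 0.067, 0.064 and −0.044. The genes not yet named, IAA5, IAA11, IAA15 and IAA27, had ratios between −0.19 and 0.087 on all arrays.

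The 5 ARF activators lay slightly above 0 by their median. That log2 ratio was 0.163, 0.134 and 0.131, with 5, 3 and 4 of 5 above 0. Over the whole array 12609 of 26009, 13110 of 26012 and 12970 of 26006 genes were above 0. With median centring ARF8 and ARF19 were below 0 under normal growth, at −0.061 and −0.072. The other 7 ARF genes had medians of −0.006, 0.048 and −0.078. ARF5 (AT1G19850), or MONOPTEROS, which sets up the embryo axis and veins, read 29847, 20072 and 12120.3 in wild type against 38609, 25677 and 12532 in AhNF-YC-OE, with ratios of 0.18, 0.22 and 0.19. ARF6 (AT1G30330) acts with ARF8 in flower maturation under control of miR167. Its spot read 1366, 1229 and 2219.7 in wild type against 1100.5, 744 and 1837 in AhNF-YC-OE, with ratios of 0.20, 0.13 and 0.19. ARF7 (AT5G20730), or NPH4, drives lateral rooting and tropic growth with ARF19. It read 1664, 1114 and 1477 in wild type against 1301, 677 and 1093 in AhNF-YC-OE as the mean of 2 spots, with ratios of 0.16, 0.19 and 0.13. ARF5, ARF6 and ARF7 were each slightly higher in AhNF-YC-OE on all arrays, by at most 0.22, about the spread between spots of one transcript.

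ARF8 (AT5G37020) read 2066, 779 and 1197 in wild type against 1547, 331 and 881 in AhNF-YC-OE, with ratios of 0.087, −0.093 and 0.12. ARF19 (AT1G19220) read 4569.9, 4861 and 5825 in wild type against 3381, 3073 and 4133 in AhNF-YC-OE, with ratios of 0.023, −0.17 and −0.17. ARF8 was below 0 on the water stress array alone, and ARF19 stood lower in AhNF-YC-OE on the water stress and recovery arrays.

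Among the other ARF genes, ARF1 (AT1G59750) and ARF2 encode repressors of growth and of leaf longevity. The mean of 2 ARF1 spots read 18460.1, 12529 and 11659 in wild type against 14646, 13061 and 10792 in AhNF-YC-OE, with ratios of −0.31, −0.18 and −0.16, below 0 on all arrays. ARF2 (AT5G62000) read 31054, 20498 and 18118 in wild type against 34973, 22838 and 18369 in AhNF-YC-OE on the spot used, with ratios of −0.006, 0.048 and 0.047; its other spot gave 0.20, 0.26 and 0.18. The ARF1 spots also ranged, from −0.43 to −0.19 under normal growth. ARF3 (AT2G33860), or ETTIN, and ARF4 specify the lower leaf side and are cleaved through trans-acting small RNAs. ARF3 read 29972, 26605 and 33308 in wild type against 37575, 34804 and 33062 in AhNF-YC-OE, with ratios of 0.14, 0.091 and −0.20. ARF4 (AT5G60450) read 3929, 4314 and 5571 in wild type against 2487, 2902 and 4163 in AhNF-YC-OE, with ratios of −0.18, −0.065 and −0.092. ARF4 was below 0 on all arrays, while ARF3 was above 0 on the first 2 arrays and below it in recovery.

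The 3 targets of miR160 completed the family. ARF10 (AT2G28350) read 12631, 1929 and 1582 in wild type against 9351, 1285 and 1134 in AhNF-YC-OE, with ratios of −0.13, 0.12 and 0.043. ARF16 (AT4G30080), which acts with ARF10 in the root cap, read 129, 223 and 141 in wild type against 116, 67 and 76 in AhNF-YC-OE, with ratios of 0.01, 0.17 and 0.042. ARF17 (AT1G77850) read 191, 343 and 234 in wild type against 155, 84 and 112 in AhNF-YC-OE, with ratios of 0.058, −0.19 and −0.078. ARF16 and ARF17 were among the dimmest members, below the 95th percentile of empty spots in each channel. All 12 ARF genes lay within the middle 95% of genes of like intensity. As 95% of all genes lie there by its making, this does not set the family apart.

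The other auxin genes gave counts near those of the whole array. Of 58 further genes (6 co-receptors, 5 corepressors, 4 SCF parts, 15 early targets, 14 of synthesis and 14 of transport), 0 were at least 2-fold apart under normal growth and in recovery, beside 0.1% and 0.438% of all genes. Under water stress 1 was, beside 0.834% of all genes: the corepressor gene TPR4, a TOPLESS relative, higher in AhNF-YC-OE at a log2 ratio of 1.05; its values on the other arrays were 0.13 and −0.047. The median over the 58 genes was −0.062, 0.038 and −0.0027. The early targets, GH3 genes for auxin conjugation and SAUR genes of rapid growth, had medians of −0.077, −0.084 and −0.11. Above 0 were 3, 6 and 5 of 15, beside 12609 of 26009, 13110 of 26012 and 12970 of 26006 genes over the whole array.

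Setting the ratio of one array against another cancels a dye bias that is the same on both. From normal growth to water stress the ratio of IAA3 differed by −1.10, the only value among the 41 at least 1 in size; 0.35% of all genes were that much lower and 0.45% that much higher. That call depended on the processing: it held under 6 of 8 alternatives that gave a value, which ran from −1.50 to −0.848. As IAA3 has 1 spot, the mean over probes, the brightest spot and lifting the filter on dim spots could only repeat the value. With print-tip loess IAA3 stood at −0.848 and none of the 41 reached 1. In the authors' deposited table IAA3 stood at −0.97, while IAA6, at −1.06, and IAA29, at 1.29, passed 1 in its place. From normal growth to recovery none of the 41 reached it, beside 0.331% of all genes. Between recovery and water stress none did either, beside 0.138%. For water stress minus normal growth the next in size were IAA30 at −0.67, IAA6 at −0.62, IAA29 at 0.57 and IAA34 at 0.56. For recovery minus normal growth the order was IAA34 at 0.75, IAA30 at −0.70, IAA6 at −0.64 and IAA3 at −0.59. The normal growth array enters all of these values, so they are not independent. For recovery minus water stress IAA3 stood at 0.51 and IAA29 at −0.51, the latter at the low signal given above.

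Changes between arrays within one genotype passed 2-fold for more genes than differences between genotypes did. They come from single-channel intensities after scaling between arrays, and condition and array differ together, so a change with condition and a difference between slides cannot be told apart. The scaling makes up for the brighter normal growth array, which is why a spot of steady raw intensity has a positive value for water stress over normal growth. Both genotypes of an array share each spot and are not independent repeats. The spread of these changes between spots of one transcript was 0.944 in wild type for water stress over normal growth and 1.021 for recovery over normal growth, close to the 2-fold limit itself.

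For water stress over normal growth, 9 of 41 genes in wild type passed 2-fold upward and 4 downward, beside 15.4% and 15% of all genes. In AhNF-YC-OE 9 were higher and 3 lower, beside 12.8% and 13%. Higher in both genotypes were 8 genes, 5 Aux/IAA and 3 ARF, and lower in both were 3, beside 11.4% and 11.6% of all genes. The Aux/IAA median was 0.46 in wild type, 0.35 in AhNF-YC-OE, and the ARF median 0.021 and −0.023, beside 0.084 and 0.052 over all genes. With median scaling of each channel the median of all genes stood at 0.89 and 0.88. In wild type 24 of the 41 then passed 2-fold upward and 3 downward, against 23 and 2 in the transgenic line. The share of all genes past 2-fold with that scaling is not given here, so these counts are not read as a family result. Among the 17 genes brighter than 95% of empty spots on both arrays, 1 was higher and 2 lower in wild type, beside 10.8% and 19% of the 12346 genes that bright.

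Among the Aux/IAA genes IAA7 had the highest value, 3.77 in wild type against 3.63 in AhNF-YC-OE, on the spot used; its other spots were below 0. It was followed by IAA20, at 1.92 in wild type against 1.93 in AhNF-YC-OE. IAA1 stood at 1.42 in wild type against 1.33 in AhNF-YC-OE. IAA7 aside, each of the genes in this group has 1 spot. IAA33 stood at 1.22 in wild type against 1.17 in AhNF-YC-OE, and IAA28 at 1.09 in wild type against 1.09 in AhNF-YC-OE. On the lower side IAA6 stood at −2.28 in wild type against −2.91 in AhNF-YC-OE. IAA18 stood at −1.63 in wild type against −1.60 in AhNF-YC-OE. These 7 genes passed 2-fold the same way in both genotypes. On the normal growth array none of them exceeded the 95th percentile of empty spots in either channel. Under water stress the IAA6 intensity in AhNF-YC-OE was below that percentile as well.

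The 3 ARF genes higher in both were ARF4, ARF19 and ARF6, a repressor and a pair of activators. None of them exceeded the 95th percentile of empty spots on the normal growth array. ARF4 stood at 1.75 in wild type against 1.87 in AhNF-YC-OE. ARF19 stood at 1.69 in wild type against 1.50 in AhNF-YC-OE, and ARF6 at 1.21 in wild type against 1.14 in AhNF-YC-OE. ARF10, the miR160 target, was lower, at −1.31 in wild type against −1.06 in AhNF-YC-OE. The genes past 2-fold in one genotype were IAA30, IAA34 and IAA26. IAA30 stood at 1.05 in wild type against 0.39 in AhNF-YC-OE, IAA34 at −1.11 in wild type against −0.55 in AhNF-YC-OE and IAA26 at 0.97 in wild type against 1.002 in AhNF-YC-OE. For IAA26 the genotypes lay on either side of the limit with almost equal values. IAA3 was the only gene whose change differed by at least 1 between genotypes, at 0.51 in wild type against −0.59 in AhNF-YC-OE, short of 2-fold in each.

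Recovery over normal growth gave nearly the same picture, and it shares the normal growth array with the comparison above. In wild type 9 of 41 were higher and 4 lower, beside 16.6% and 15.8% of all genes. In AhNF-YC-OE 7 were higher and 3 lower, beside 14.4% and 14.3%. Median scaling gave 18 higher and 3 lower in wild type, where the median of all genes then stood at 0.72. The share of all genes past 2-fold is not given for that scaling either. IAA7 stood at 3.14 in wild type against 3.174 in AhNF-YC-OE, IAA20 at 2.05 in wild type against 2.04 in AhNF-YC-OE, IAA33 at 1.57 in wild type against 1.61 in AhNF-YC-OE and IAA28 at 1.27 in wild type against 1.16 in AhNF-YC-OE. The ARF genes ARF4, ARF6 and ARF19 were again higher in both genotypes. ARF4 stood at 2.20 in wild type against 2.29 in AhNF-YC-OE. ARF6 stood at 2.17 in wild type against 2.15 in AhNF-YC-OE, and ARF19 at 2.04 in wild type against 1.85 in AhNF-YC-OE. These 7 genes were higher in both genotypes, where 13.2% of all genes were, while IAA1 and IAA30 passed the limit in wild type only, IAA1 at 1.11 in wild type against 0.93 in AhNF-YC-OE and IAA30 at 1.29 in wild type against 0.59 in AhNF-YC-OE. Lower in both, as were 13.1% of all genes, were IAA6, at −2.50 in wild type against −3.14 in AhNF-YC-OE, IAA9, at −1.59 in wild type against −1.35 in AhNF-YC-OE on the spot used, and ARF10, at −1.59 in wild type against −1.42 in AhNF-YC-OE. IAA34 passed the limit in wild type only, at −1.23 in wild type against −0.48 in AhNF-YC-OE.

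**Figure D4:**
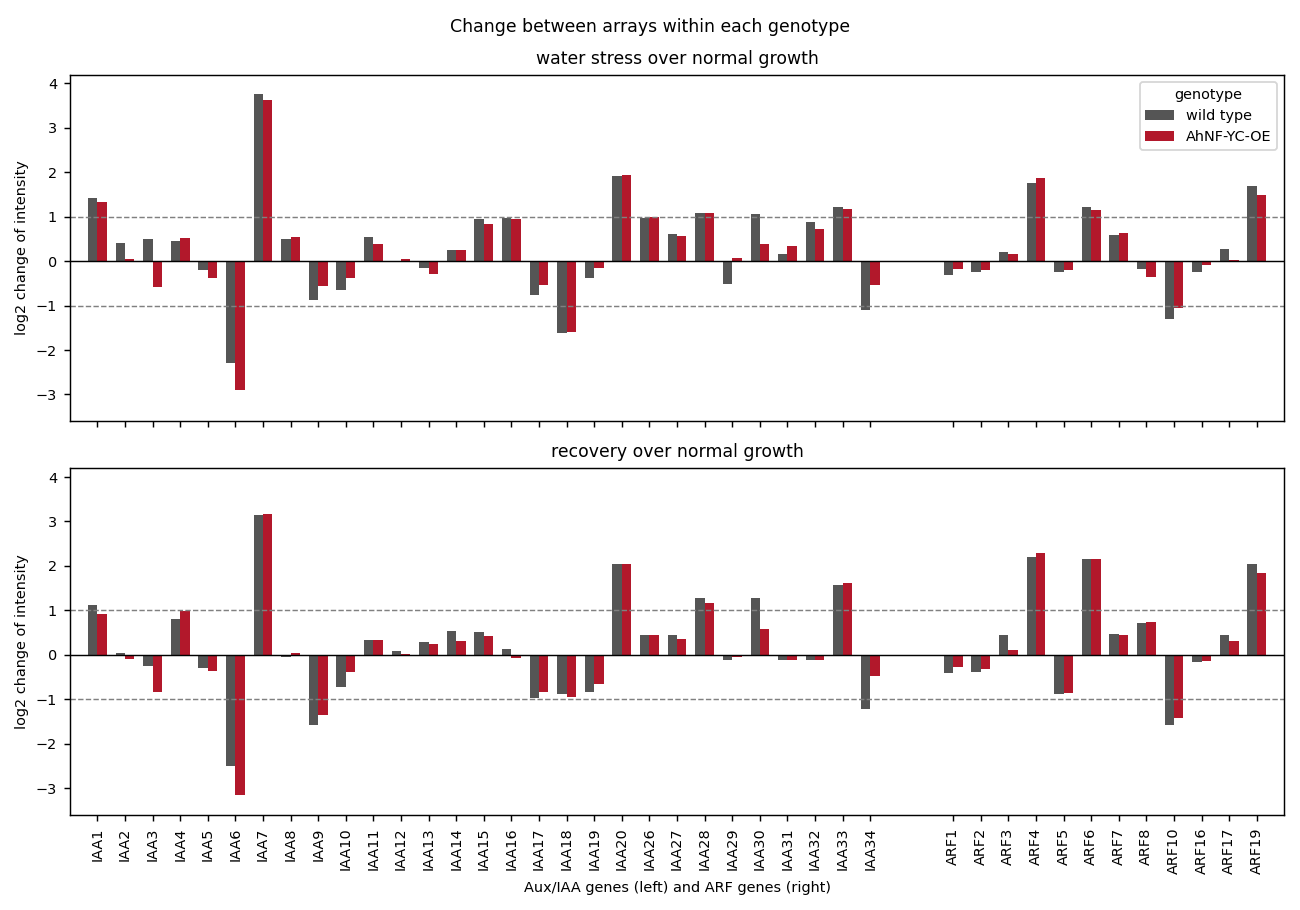
Log2 change of single-channel intensity for the 41 genes, water stress over normal growth (top) and recovery over normal growth (bottom), with wild type in grey, AhNF-YC-OE in red and dashed lines at 2-fold. The bars of both genotypes, which come from the same spots, are nearly equal for most genes, with IAA7 highest and IAA6 lowest in both panels. On the normal growth array IAA7 and IAA6 both lay below the 95th percentile of empty spots. There is 1 array per condition and no error bar.

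Recovery over water stress, the pair of arrays with similar brightness, held fewer such genes. None of the 41 was at least 2-fold apart in wild type, beside 3.91% of all genes higher and 3.99% lower. In AhNF-YC-OE 2 were higher and 1 lower, beside 3.07% and 3.64%. The higher ones were the miR167 targets ARF6, at 0.95 in wild type against 1.004 in AhNF-YC-OE, and ARF8, at 0.88 in wild type against 1.09 in AhNF-YC-OE. IAA16 was the lower one, at −0.84 in wild type against −1.01 in AhNF-YC-OE. All of these lay near the limit in both genotypes, so the count in one genotype and not the other does not show a difference between them.

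Where a gene had several spots, they disagreed on these changes. For water stress over normal growth 8 of 9 such genes had spots on both sides of 0 in wild type, and so did 8 of 9 in each of the other pairs of arrays. The IAA7 value of 3.77 came from the spot of one transcript code, and the other spots stood at −0.89 and −0.94. The IAA13 spots stood at 0.44, 1.56 and −1.89. For recovery over normal growth the IAA9 spots stood at −1.59 and 1.70, and the ARF7 spots at 2.07 and −1.11. IAA7 and IAA9 were the only genes with several spots among those past 2-fold, so no such gene had a further spot on its side. IAA32 had spots at −0.63, 1.11 and 0.63 for water stress over normal growth. Spots of one gene lay at the same row and column of different blocks.

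**Figure D5:**
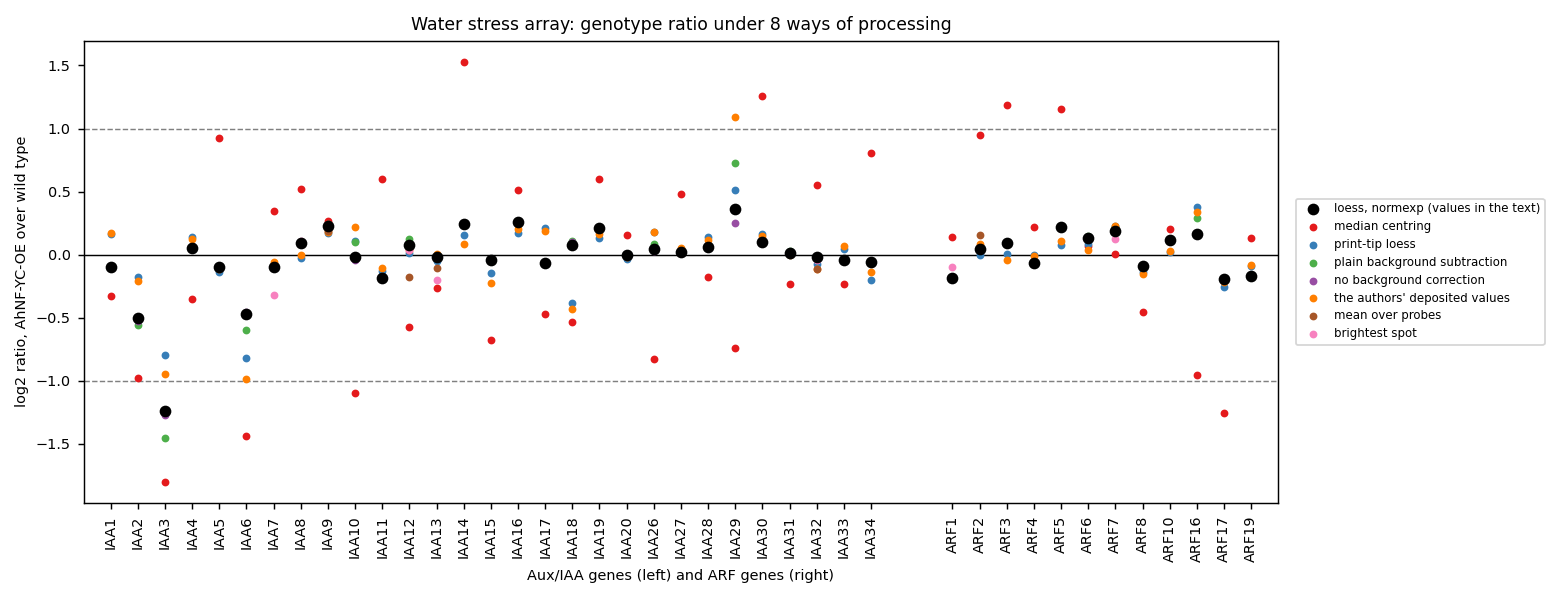
Log2 genotype ratio (AhNF-YC-OE to wild type) on the water stress array for each of the 41 genes, with black points for the values in the text and coloured points for 7 other ways of processing. IAA3 runs from −1.80 to −0.797 and stays below 0 in each, while 16 of 41 genes keep the same sign in all 8. For genes with 1 spot, the mean over probes and the brightest spot repeat the black point. The red points of median centring spread furthest.

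The sign of a small ratio rested on the processing. Over 8 ways of processing, 22, 16 and 18 of 41 genes kept the same sign, in the order of arrays used throughout. For the 32 genes with 1 spot, the mean over probes and the brightest spot repeat the main value, so fewer ways could change the sign. Median centring, which leaves the dependence of the ratio on intensity in place, moved the values most, to 4 genes past 2-fold upward and 4 downward under water stress. The share of all genes past 2-fold with median centring is not given here, so these counts are not a result about the families. IAA3 was past 2-fold under 7 of 9 alternatives that gave it a value. As it has 1 spot, the mean over probes, the brightest spot and the filters on dim spots repeat its main value and add no support. On the water stress array IAA3 passed the empty-spot filter through the wild-type channel only.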

How the data were processed

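Members and gene lists were chosen with earlier results of these data known. Per the file headers, the deposited intensity values are mean pixel intensities of each spot and its local background in both channels; the annotation uses TAIR and TIGR locus codes. The authors also deposited normalized intensities and their log2 ratio, by a method that the sources used here do not give; a table of the series holds the same log2 values, with medians of −0.0066, 0.0071 and 0.004. Each array has 30000 spots. Labelling used Cy3 and Cy5 per the labels.

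From the scanner intensities, background was corrected by normexp (offset 50) and ratios were normalised by loess over intensity, control and empty spots having weight 0; single channels were then scaled by Aquantile (limma 3.58.1, R 4.3.3). On simulated arrays only the ratio within an array was checked. The scaling of single channels between arrays was not. Spots of one transcript code were averaged, and the brightest code stood for a gene. A gene was counted when its brighter channel exceeded the local background mean plus 2 SD, which left 26009, 26012 and 26006 genes. Called means a log2 value of at least 1 in size, 2-fold. There were 12 comparisons, none with a test. The number of arrays limits the precision. Degron classes are textbook knowledge. Full values were given to genes past 2-fold, the 3 highest and 3 lowest ratios per family and array, genes with several spots, genes without a degron, and every ARF. Tables were made with Python 3.11.15, numpy 2.4.6 and pandas 2.3.3. The RefSeq table gave names only. Sequences were not used here.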

Additional observations from a re-analysis of the deposited data

How the results depend on the processing

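No paired analysis was possible because each condition has 1 array. Over 12 comparisons, 172 counts stayed within 1.5 times their value and 32 did not. Many of the main counts are 0, and some alternatives cannot change genes with 1 spot, so this tally is not a measure of stability. The family medians have no error of their own, so no stability is read from them: less the median of all genes, the Aux/IAA ratio ran from −0.067 to 0.085 under normal growth, from −0.248 (median centring) to 0.026 under water stress and from −0.025 to 0.068 in recovery, and the ARF ratio from −0.012 to 0.078, from 0.002 to 0.124 and from −0.023 to 0.064. With median centring, under normal growth 1 gene was at least 2-fold higher, under water stress 4 were higher and 4 lower, in recovery 1 lower, and 4 lower for water stress minus normal growth. Under water stress 0 were lower with print-tip loess or above the median intensity, and 1 higher and 0 lower in the authors' deposited values. For water stress minus normal growth 0 were lower with print-tip loess, among genes brighter than 95% of empty spots or above the median intensity, and 1 was higher with plain subtraction and in the authors' values. Median scaling, with the median of all genes at 0.89 and 0.72 for water stress and recovery over normal growth in wild type, gave 24 and 23 genes higher under water stress over normal growth (wild type, AhNF-YC-OE) and 18 and 17 in recovery over normal growth. In recovery over water stress it gave 1 lower in wild type, and 1 higher and 2 lower in AhNF-YC-OE. Quantile normalization gave 1 lower in wild type against 0 in AhNF-YC-OE there, and the authors' values 0 lower in AhNF-YC-OE. Shares over all genes are not given for these alternatives, so the counts describe the processing and not the families.

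A pair of alternatives was chosen after seeing the data. Among genes brighter than 95% of empty spots on both arrays, water stress over normal growth left 1 higher and 2 lower in wild type, beside 10.8% and 19% of genes that bright. In AhNF-YC-OE it left 0 higher and 1 lower. For recovery over normal growth 1 was higher in wild type against 0 in AhNF-YC-OE. On the lower side stood IAA9, IAA34 and ARF10 in wild type, at −1.59, −1.23 and −1.59. In AhNF-YC-OE IAA9 and ARF10 did, at −1.35 and −1.42. Fewer genes are counted with this filter. Its other shares over all genes are not given, so these counts are not read as a family result. The brightest single spot gave 5 lower in AhNF-YC-OE in both comparisons, for which no share over all genes is given. It turned IAA7 to −0.89 and −1.67 (water stress over normal growth, wild type and AhNF-YC-OE) and to −0.46 and −1.003 (recovery over normal growth). The mean over probes turned IAA9 to 0.055 and 0.22 in recovery over normal growth, and median scaling turned IAA34 in wild type to 0.41 and 0.073. The causes were not tested. All 41 genes lay above local background, but under normal growth 24 of 41 genes did not exceed the 95th percentile of the empty spots in either channel.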
